A study of Mus musculus with 6 samples.

Results

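Chil1 encodes chitinase-like protein 1 (the counterpart of human YKL-40), a secreted glycoprotein of the glycosyl hydrolase 18 family that binds chitin but does not cut it. Chil1 and 4 genes for its partners, Chid1, Tmem219, Il13ra1 and Il13ra2, made up the group described here, which is 5 of the 15663 genes listed in RNA-seq of mouse RPE-choroid. All 5 symbols matched a single gene identifier in the files. The group was chosen by name, with the levels of Chil1 in this same comparison known, so the differences of the 5 genes between the groups are given as a description and no p-value is attached to them.

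Chitinase-like proteins are made largely by macrophages, neutrophils and cells of remodelling tissue, and they act as signals rather than as enzymes. Chil1 binds the alpha 2 chain of the interleukin-13 receptor, encoded by Il13ra2, with TMEM219 as a co-receptor, and this complex is known to signal through ERK, AKT and beta-catenin. Il13ra1 encodes the other interleukin-13 binding chain, which pairs with the interleukin-4 receptor alpha chain and signals through STAT6, whereas the alpha 2 chain has a short cytoplasmic tail and was first described as a decoy. Chid1 encodes a further chitinase-domain protein, stabilin-1 interacting chitinase-like protein, which is found in lysosomes and on secretory routes of macrophages.

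RPE-choroid is the retinal pigment epithelium, the pigmented layer behind the photoreceptors, with the vascular choroid under it. The 3 control mice were untreated C57BL/6 animals, and the 3 subretinal fibrosis (SRF) mice, of the same strain, received 4 laser burns in each eye, a second burn on each lesion 10 days later, and gave tissue 20 days after that. The study's methods give the mice as C57BL/6J males of 8 to 10 weeks. The lesions take up a limited part of the tissue that was extracted, and in such a bulk sample fewer cells of a type and less RNA per cell cannot be told apart. Each mouse was 1 library.

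Chil1 lies at chr1:134182176-134190181 on the plus strand of GRCm38 (ENSMUSG00000064246) and overlaps no other annotated gene. Chid1 (ENSMUSG00000025512, chr7:141493136-141539857, minus strand) overlaps Tspan4 on the opposite strand, and Tmem219 (ENSMUSG00000060538, chr7:126886171-126922917, minus strand) overlaps 2 genes that have no row in the files. The sources used here do not say whether the counting used strand, so the counts of Chid1 may hold reads of Tspan4. Il13ra1 (ENSMUSG00000017057, chrX:36112110-36171259, plus strand) and Il13ra2 (ENSMUSG00000031289, chrX:147383476-147429192, minus strand) lie apart on the X chromosome.

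What separates Chil1 from the chitinases of its family can be read from 1 stretch of coding sequence. The active enzymes carry a DGxDxDWE motif whose last residue, a glutamate, is the catalytic acid. The 24 bases that encode this stretch are shown for the lectin-like and the enzymatic relatives, read from the GRCm38 transcripts, with the codon at the catalytic position in capitals.
Chil1: gatgggctggatctcgcctggCTC
Chil3: gatggcctcaacctggactggCAG
Chia1: gatggactggacctggactggGAA
Chit1: gatggccttgaccttgactggGAG
The codon in capitals encodes leucine in Chil1 and glutamine in Chil3, also a lectin without chitinase activity, and glutamate in the chitinases Chia1 and Chit1. In Chil1 the stretch lies in exon 5 at chr1:134185231-134185254 and covers residues 142 to 149 of 389. In Chit1, the neighbour of Chil1 on the chromosome, it lies at chr1:134145334-134145357, and in Chia1 at chr3:106122448-106122471, both on the plus strand. In Chil3 it lies at chr3:106160428-106160451 on the minus strand. Chid1 held no match to this stretch.

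The 250 bases in front of the annotated start of Chil1 (RefSeq, GRCm38.p6, chr1:134181906-134182155, plus strand) are shown because Chil1 is the member whose level differed most between the groups, and capitals mark the single match found to the motifs searched.
Chil1 promoter: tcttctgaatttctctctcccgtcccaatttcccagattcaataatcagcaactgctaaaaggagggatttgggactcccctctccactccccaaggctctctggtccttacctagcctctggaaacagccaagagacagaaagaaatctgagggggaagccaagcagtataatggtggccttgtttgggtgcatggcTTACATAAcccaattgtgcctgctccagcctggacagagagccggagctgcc
The match is to TTNCNNAA, a C/EBP-type motif, and spans 52 to 45 bases before the start. Both strands were searched, and 36.8% of 32851 mouse promoters of this length hold such a match. The other motifs searched had no match in this window of Chil1. The AP-1 motif TGANTCA is held by 6.75% of promoters. The ETS core as in PU.1, GAGGAA, is held by 23.3%. The STAT motif TTCNNNGAA is held by 7.02%, and the STAT6 motif, which has 1 base more between its arms, by 5.85%. The GC box GGGCGG is held by 32.7%. The TATA box TATAAA is held by 12.4%. The GC box was matched in all 3 promoters of Chid1 and in those of Tmem219 and Il13ra1, and not in that of Il13ra2. The Il13ra2 window matched the AP-1, ETS, C/EBP and TATA letters.

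The ligand, Chil1, was among the most abundant transcripts of the tissue and was higher in every SRF mouse than in any control mouse. Its level was 300 FPKM in control 1, 387 in control 2 and 670 in control 3, where FPKM is the number of fragments scaled to the length of the transcript and to the mapped reads of the library. In the SRF mice it was 1378 FPKM in SRF 1, 1534 in SRF 2 and 1541 in SRF 3. The groups did not overlap, and control 3 stood above the other controls while the SRF mice lay close together. The means were 452 ± 194 FPKM in control mice and 1480 ± 92.1 FPKM in SRF mice (SD, n = 3 each), a ratio of 3.28. Within the control group the highest library was 2.25 times the lowest in CPM (counts scaled to a common library size), against 1.12 times within the SRF group.

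The deposited counts behind these levels were 6817, 12182 and 27379 in control 1, 2 and 3, and 42220, 45176 and 45836 in SRF 1, 2 and 3. Chil1 thus took 0.0499%, 0.0645% and 0.112% of all counts in the control mice and 0.231%, 0.258% and 0.259% in the SRF mice. The 95% Wilson intervals were 0.111 to 0.114 in control 3 and 0.229 to 0.233 in SRF 1, the nearest libraries of the groups. That of control 2, 0.0634 to 0.0657, also lies apart from that of control 3. Such intervals cover counting error only and not the spread between mice. After TMM normalization, which scales libraries to each other by the bulk of their genes, Chil1 was at 770 ± 331 CPM in control mice and 2460 ± 152 CPM in SRF mice. The fitted log2 fold change of SRF over control was 1.67 (SE 0.28), beside a median of 0.001 over the 13454 genes tested. Of the genes tested, 11 had a higher log2 fold change, and none of these reached the FPKM of Chil1 in SRF mice.

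Chil1 also moved up the order of genes within each library. Among 15663 genes it held rank 206 by FPKM in control 1, rank 161 in control 2 and rank 69 in control 3. In SRF 1, SRF 2 and SRF 3 it held ranks 36, 33 and 26. The ranks of the groups did not overlap, and ranked by counts instead it stood at 196, 146 and 69 in the controls and at 30, 27 and 28 in the SRF mice. In mean FPKM over the SRF mice 31 genes were more abundant, the nearest being Hbb-bs, a beta-globin, and Cd63, a tetraspanin of endosomes and melanosomes. The next genes below were Ppia, a cyclophilin, and Dct, a melanin synthesis enzyme of pigment cells. The plot of ranks shows Chil1 apart from the other members in all libraries.

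**Figure D1:**
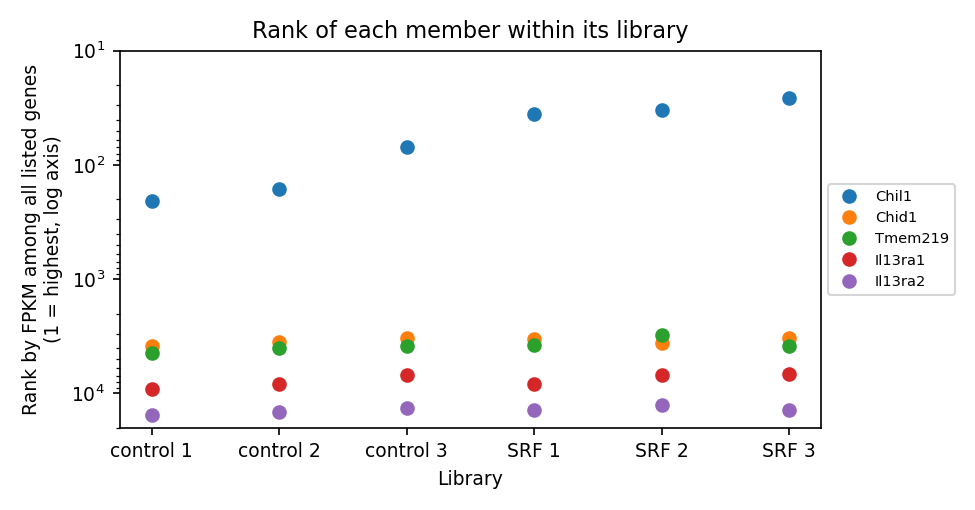
Rank of each member by FPKM among all listed genes (y, log axis, 1 is the highest level) in each of the 6 libraries (x). Chil1 lies at ranks 69 to 206 in the controls and 26 to 36 in the SRF mice, while Chid1 and Tmem219 stay between ranks 3076 and 4413.

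The relatives of Chil1 in the glycosyl hydrolase 18 family were at a small share of its level. Chil3 (Ym1), the lectin that alternatively activated mouse macrophages secrete, had 0.67, 0.55 and 0.83 FPKM in the control mice and 0.46, 0.85 and 1.69 FPKM in the SRF mice. The groups overlapped, and SRF 3 was the highest library. Chit1, the macrophage chitotriosidase, had 0.22, 0.29 and 0.7 FPKM in control mice and 0.16, 0.5 and 0.07 FPKM in SRF mice. Chia1, the acidic chitinase, was between 0.16 and 0.44 FPKM in all libraries. Of the 10 family genes looked for, 7 were listed and 3 were tested, of which 2 are Chil1 and Chid1. The third, Ctbs, a lysosomal chitobiase, had a log2 fold change of -0.18 (SE 0.17), and Chil4, Chil5 and Chil6 have no row in the files.

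Chid1 was found at similar levels in both groups. Its FPKM was 21.6, 23.7 and 26.3 in the control mice and 25.5, 23.9 and 27.3 in the SRF mice. The groups overlapped, with means of 23.9 ± 2.32 and 25.6 ± 1.71 FPKM. The log2 fold change was 0.08 (SE 0.12), and the counts, 643 to 1417 in control mice and 997 to 1021 in SRF mice, were deep enough for an error of that size. The ratio of Chil1 to Chid1 in FPKM was 13.9, 16.3 and 25.5 in the control mice and 54.1, 64.2 and 56.5 in the SRF mice, with no overlap.

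The co-receptor gene, Tmem219, lay slightly higher in the SRF mice. Its FPKM was 18.01, 19.88 and 21.62 in the control mice and 22.4, 29.0 and 22.2 in the SRF mice. The groups did not overlap, but the gap between control 3 and SRF 3 was small beside the spread within the groups, and SRF 2 stood above the other SRF mice. In CPM the means were 18.8 ± 1.35 and 21.9 ± 3.11, and the log2 fold change was 0.22 (SE 0.15). Chil1 was 16.6, 19.5 and 31.0 times as abundant as Tmem219 in the control mice, and 61.5, 52.9 and 69.4 times in the SRF mice.

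Il13ra2, the receptor chain that binds Chil1, had the lowest level of the 5 genes. It had 1, 7 and 27 counts in control 1, 2 and 3, and 15, 34 and 15 counts in SRF 1, 2 and 3. The groups overlapped, control 1 was the lowest library and SRF 2 the highest. These counts correspond to 0.05, 0.24 and 0.72 FPKM in control mice and 0.53, 1.26 and 0.52 FPKM in SRF mice, or 0.337 ± 0.345 and 0.77 ± 0.424 FPKM as means. Il13ra2 did not have more than 50 counts in any library, so it was not among the genes tested. A fit with no filter on low counts gave a log2 fold change of 1.08 (SE 0.81). Its CPM differed 15.1-fold among the control mice alone.

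Il13ra1, the signalling chain for interleukin-13, was at 5.02, 5.83 and 8.56 FPKM in the control mice and at 6.32, 9.48 and 9.82 FPKM in the SRF mice. The groups overlapped, since control 3 lay above SRF 1. The means were 6.47 ± 1.85 and 8.54 ± 1.93 FPKM and the log2 fold change was 0.35 (SE 0.25). Without control 1 and SRF 3 it was 0.07 (SE 0.23). Il13ra1 exceeded Il13ra2 in every library, by 7.52 to 100 times in FPKM, where the highest ratio rests on the single Il13ra2 count of control 1.

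The order of the 5 genes by mean FPKM was the same in both groups, from Chil1 through Chid1, Tmem219 and Il13ra1 to Il13ra2. Chid1 and Tmem219 are the neighbours in this order that did not differ beyond their spread in SRF mice, where the ratio of Chid1 to Tmem219 was 1.14, 0.823 and 1.23. In the control mice this ratio was 1.19 to 1.21, although the lowest Chid1 and the highest Tmem219 level of different control mice met at 21.62 FPKM. The other neighbours did not overlap in either group, with Tmem219 at 2.26 to 3.59 times the FPKM of Il13ra1. In the control mice all 5 genes were lowest in control 1 and highest in control 3, and the CPM ranged 1.24-fold for Chid1, 1.15-fold for Tmem219, 1.70-fold for Il13ra1 and most widely for Il13ra2. The plot of member levels shows this order.

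**Figure D2:**
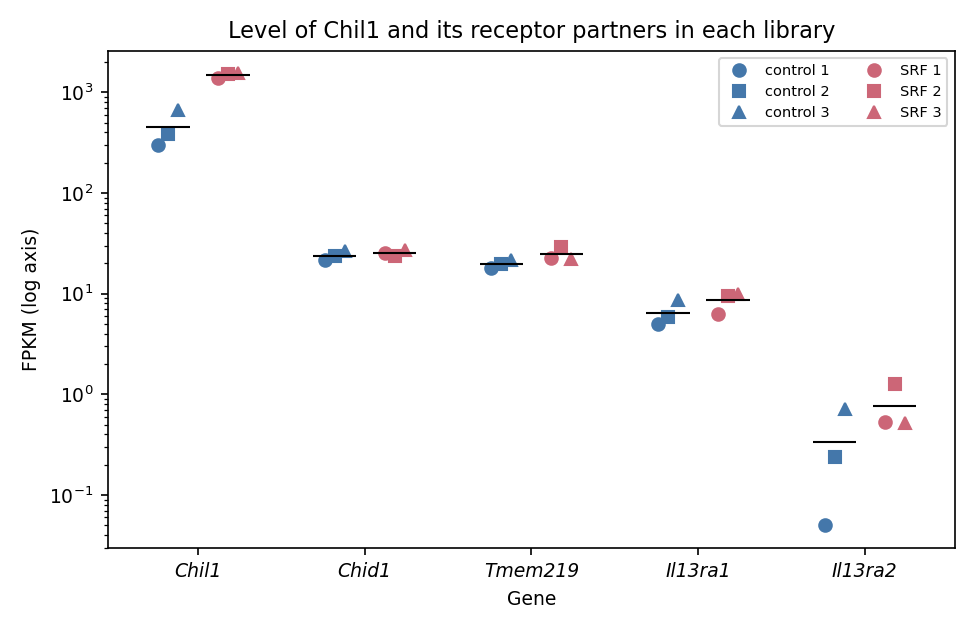
FPKM of the 5 members (y, log axis) in 3 control (blue) and 3 SRF (red) libraries, with a symbol for each mouse number and a black line at the group mean. The Chil1 means are 452 and 1480 FPKM and those of Il13ra2 0.337 and 0.77 FPKM.

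Across all 13454 genes tested, edgeR's quasi-likelihood test called none, that is 0.0%, where a call required an adjusted p-value below 0.05 together with a log2 fold change of 0.5 or more in size. An unadjusted p-value under 0.05 was found for 943 genes, 4.16% of all higher and 2.85% lower in SRF. DESeq2 at the same thresholds called 153 genes, 0.803% of all higher and 0.334% lower. Of the 4 members tested edgeR called 0 and DESeq2 called 1, which was Chil1, the gene the group was chosen for. All 4 had a fold change above 0, and 2 of the 5 members, Chil1 and Tmem219, had groups that did not overlap in CPM, beside 6.71% of tested genes with SRF higher and 6.43% with SRF lower. The fold changes of other genes below come from the edgeR fit over all 6 libraries, in which no gene was called, unless another fit is named.

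Control 1 and SRF 3 stood apart from the other libraries by RNA of photoreceptors, the cells of the neighbouring retina. The summed CPM of 12 photoreceptor markers was 12900 in control 1 and 12300 in SRF 3, and 724 to 1760 in the other 4 libraries. The totals were 13667310 to 24356023 counts per library. Without control 1 and SRF 3, 2 mice against 2, the log2 fold change of Chil1 was 1.41 (SE 0.23), that of Chid1 was 0.00 (SE 0.14) and that of Tmem219 was 0.22 (SE 0.18). In this comparison, added after the data had been seen, edgeR called 153 genes, 0.837% of those tested higher and 0.327% lower. The tissue label was met by the RPE markers, of which 12 of 12 were tested, with a summed CPM of 46600 to 54800 in control mice and 31900 to 41500 in SRF mice, and 10 of them had a fold change below 0.

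Chil1 is a gene of macrophages among other cells, and macrophage markers were higher in the same mice. Of 12 macrophage markers, 11 had a fold change above 0, with a median log2 fold change of 0.73 beside 0.001 over all tested genes. An unadjusted p-value under 0.05 with SRF higher was found for 7 of them, beside 4.16% of all tested genes. Their summed CPM ranged from 1190 to 1540 in control mice and from 2810 to 4140 in SRF mice. Cd68, a lysosomal protein of macrophages, had a log2 fold change of 1.05 and Lyz2, lysozyme, of 1.49. The ratio of Chil1 CPM to this sum was 0.425, 0.429 and 0.75 in the control mice and 0.813, 0.608 and 0.852 in the SRF mice, so the groups overlapped. Lyz2 alone gave 62.2% to 65.5% of this sum in control mice and 74.0% to 79.8% in SRF mice. Over the other 11 markers, a choice made after the data had been seen, the sum was 452, 537 and 525 CPM in the control mice and 729, 835 and 674 CPM in the SRF mice. The ratio of Chil1 to that sum was 1.12, 1.23 and 2.17 in the control mice. In the SRF mice it was 3.13, 3.01 and 3.81, with no overlap between the groups. No other marker was left out in this way. In control 1, 2 and 3 Chil1 was at 507.5, 661 and 1142 CPM, and the sum of all 12 markers was 1190, 1540 and 1520 CPM. In SRF 1, 2 and 3 Chil1 was at 2283, 2516 and 2567 CPM, and this sum was 2810, 4140 and 3010 CPM. The part of macrophage number in the level of Chil1 was not tested.

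**Figure D3:**
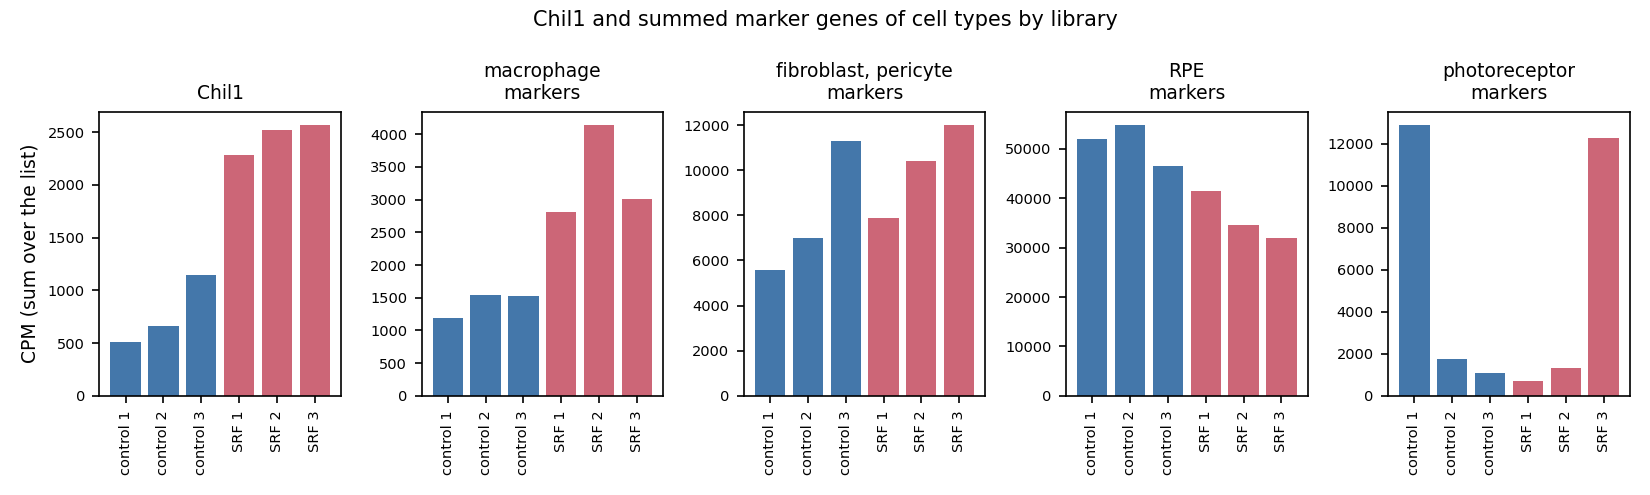
CPM of Chil1 and summed CPM of 4 lists of marker genes (y, each panel with its own scale from 0) in 3 control (blue) and 3 SRF (red) libraries. Chil1 and the macrophage sum are higher in all SRF libraries, the RPE sum is lower in all of them, and control 1 and SRF 3 hold most of the photoreceptor RNA.

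Markers of other cells that could carry Chil1 overlapped between the groups in their sums. The 7 listed neutrophil markers, of which 4 were tested, summed to 13.9 to 26.5 CPM in control mice. This range held all 3 SRF mice, the highest at 22.3 CPM, and the neutrophil genes Ngp, Ly6g and Elane have no row. Of the 4 tested, 2 had a fold change above 0 and 2 below. An unadjusted p-value under 0.05 in edgeR was found for 1 of them, with SRF higher, beside 4.16% of all tested genes. Of 10 fibroblast and pericyte markers, 8 had a fold change above 0 and 2 below, with a median log2 fold change of 0.48. Such a p-value was found for 2 with SRF higher, and for 1 with SRF lower, beside 2.85% of all tested genes. Their sum of 5570, 6980 and 11300 CPM in the control mice was highest in control 3, as was Chil1. In the SRF mice it was 7900, 10400 and 12000 CPM. Markers of cartilage and ocular surface, which can come along in dissection, were also highest in control 3, at 925 CPM against 430 and 732 CPM in the other controls and 485 to 615 CPM in SRF mice. Median log2 fold changes were 0.09 for glial, 0.03 for endothelial and 0.09 for melanocyte markers. The part of these cells in the level of Chil1 was not tested.

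The genes whose profile over the 6 libraries was nearest to that of Chil1 were found by the root mean square difference of log2 CPM, each gene centred on its own mean. The nearest was Tpsb2, a mast cell tryptase, at 0.244, followed by Aplnr, the apelin receptor, at 0.284 and Hk3, a hexokinase of myeloid cells, at 0.286. Madcam1, an adhesion molecule, followed at 0.295, then Atp6v0d2, a proton pump subunit, at 0.304 and Lox, the collagen cross-linking lysyl oxidase, at 0.305. Lat2, a signalling adaptor of immune cells, at 0.316 and Cma1, a mast cell chymase, at 0.326 completed the 8. Tpsb2 had 4.39, 5.48 and 7.51 CPM in the control mice and 14.7, 14.0 and 14.8 CPM in the SRF mice, with no overlap between the groups. Since these genes were picked for their likeness, their difference between the groups is no separate result.

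**Figure D4:**
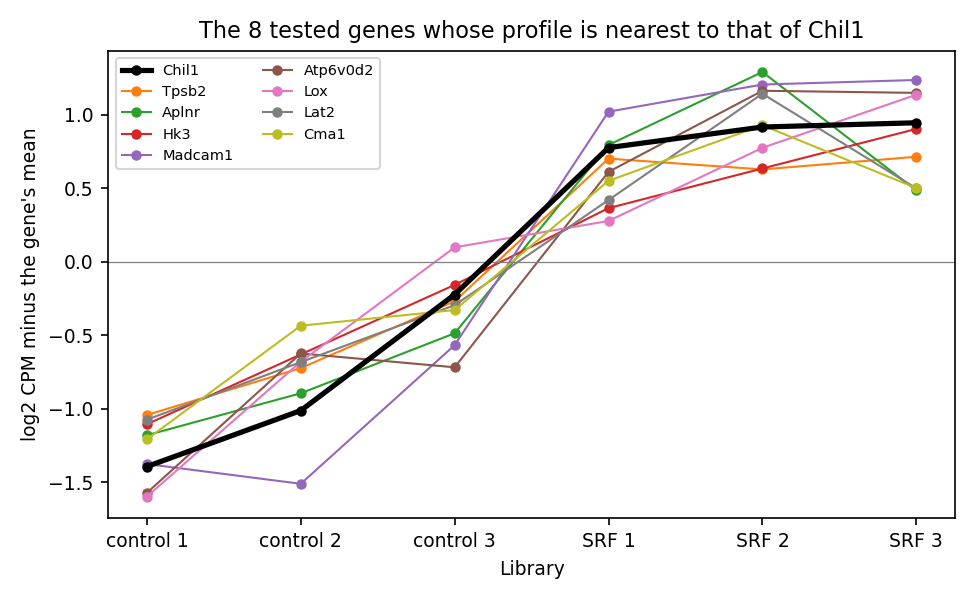
log2 CPM of Chil1 (black) and of the 8 tested genes nearest to it, each minus its own mean over the 6 libraries (y), for each library (x). Lines join the values of a gene and stand for no order in time, and all 9 genes lie above their mean in the 3 SRF libraries.

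Chitinase-like proteins also have binding partners outside the interleukin-13 receptor, and 12 of 13 such genes were listed and 10 tested, 8 of them no members. Of these 8, 6 were higher and 2 lower in fold change, with a median log2 fold change of 0.13. An unadjusted p-value under 0.05 was found for 2 with SRF higher, beside 4.16% of all tested genes, and for 1 with SRF lower, beside 2.85%. Itgb5, the integrin beta 5 subunit, had 97.0, 94.6 and 92.0 CPM in the control mice and 180, 214 and 203 CPM in the SRF mice. Every SRF mouse was thus above every control mouse, with a log2 fold change of 1.07 (SE 0.11) and an adjusted p-value of 0.106 in edgeR. Its partner Itgav, integrin alpha v, had 289, 294 and 289 CPM in the control mice and 214, 196 and 179 CPM in the SRF mice, a log2 fold change of -0.57 (SE 0.11) with an adjusted p-value of 0.264 in edgeR. DESeq2 called both genes, in opposite directions. In FPKM the groups of Itgav overlapped, with 221, 241 and 184 in the control mice and 206, 168 and 104 in the SRF mice. Itgb3, the integrin beta 3 subunit of the same list, had a log2 fold change of 0.08 (SE 0.27).

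Lgals3, the lectin galectin-3, whose protein binds the chitinase-like protein and competes for its receptor, had 92.2, 165 and 180 CPM in the control mice and 297, 326 and 207 CPM in the SRF mice. The groups did not overlap, control 1 was the lowest library and SRF 3 the lowest of the SRF mice. The log2 fold change was 0.93 (SE 0.28) with an adjusted p-value of 0.496 in edgeR over all libraries. Without control 1 and SRF 3 it was 0.85 (SE 0.13), with an adjusted p-value of 0.0253 in edgeR. Cd44, the hyaluronan receptor, had a log2 fold change of 0.21 (SE 0.11), Stab1, the stabilin-1 that Chid1 binds, 0.18 (SE 0.17), and Igfbp3, a ligand of TMEM219, -0.24 (SE 0.13). Sdc1, the syndecan-1 that links Chil1 to integrins, was at 0.02 (SE 0.48).

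In the interleukin-4 and interleukin-13 pathway the cytokine genes Il4 and Il13 had no row, and 13 of 15 genes were listed and 12 tested. Of the 11 that are no members, 9 were higher and 2 lower in fold change, with a median log2 fold change of 0.18. An unadjusted p-value under 0.05 was found for 4 genes, all higher in SRF, beside 4.16% of all tested genes. These were Il4ra, the chain that pairs with Il13ra1, at 0.53 (SE 0.13), Stat3 at 0.41 (SE 0.13), and the feedback inhibitors Socs1 at 0.80 (SE 0.23) and Socs3 at 0.54 (SE 0.17), all log2 fold changes. Il4ra had 17.6, 19.3 and 16.2 CPM in the control mice and 26.7, 26.8 and 23.2 CPM in the SRF mice, with no overlap. Stat6, the main transducer of interleukin-13 signals, was at 0.18 (SE 0.15).

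Genes that macrophages switch on in response to these cytokines gave 1 difference with an unadjusted p-value under 0.05, with SRF higher. Over all tested genes the share with such a p-value was 4.16% higher and 2.85% lower in SRF. Of 14 such genes 13 were listed and 8 tested, with 6 higher and 2 lower in fold change and a median log2 fold change of 0.17. Arg1, arginase 1, had 2.53, 7.76 and 12.1 CPM in the control mice and 7.57, 4.73 and 2.35 CPM in the SRF mice, and Retnla, resistin-like alpha, had a log2 fold change of 0.15 (SE 0.48). Both overlapped widely between the groups. Msr1, a scavenger receptor, was at 3.72, 3.74 and 6.09 CPM in the control mice and at 7.25, 8.30 and 10.1 CPM in the SRF mice, a log2 fold change of 0.91 (SE 0.29), and was that gene. Klf4, a transcription factor, was at -0.72 (SE 0.31).

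Kinases and effectors that carry signals from the receptors of Chil1 are given by single genes. Akt1 at 0.41 (SE 0.11) and Nfkb1 at 0.41 (SE 0.13) had an unadjusted p-value under 0.05 with SRF higher, beside 4.16% of all tested genes. Tgfb1, the fibrogenic growth factor, was at 0.53 (SE 0.27), and Ctnnb1, which encodes beta-catenin, at 0.10 (SE 0.11). Over all pathway lists together edgeR called 0 genes. It also called 0 of all 13454 genes tested, so this count says nothing about the lists.

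**Figure D5:**
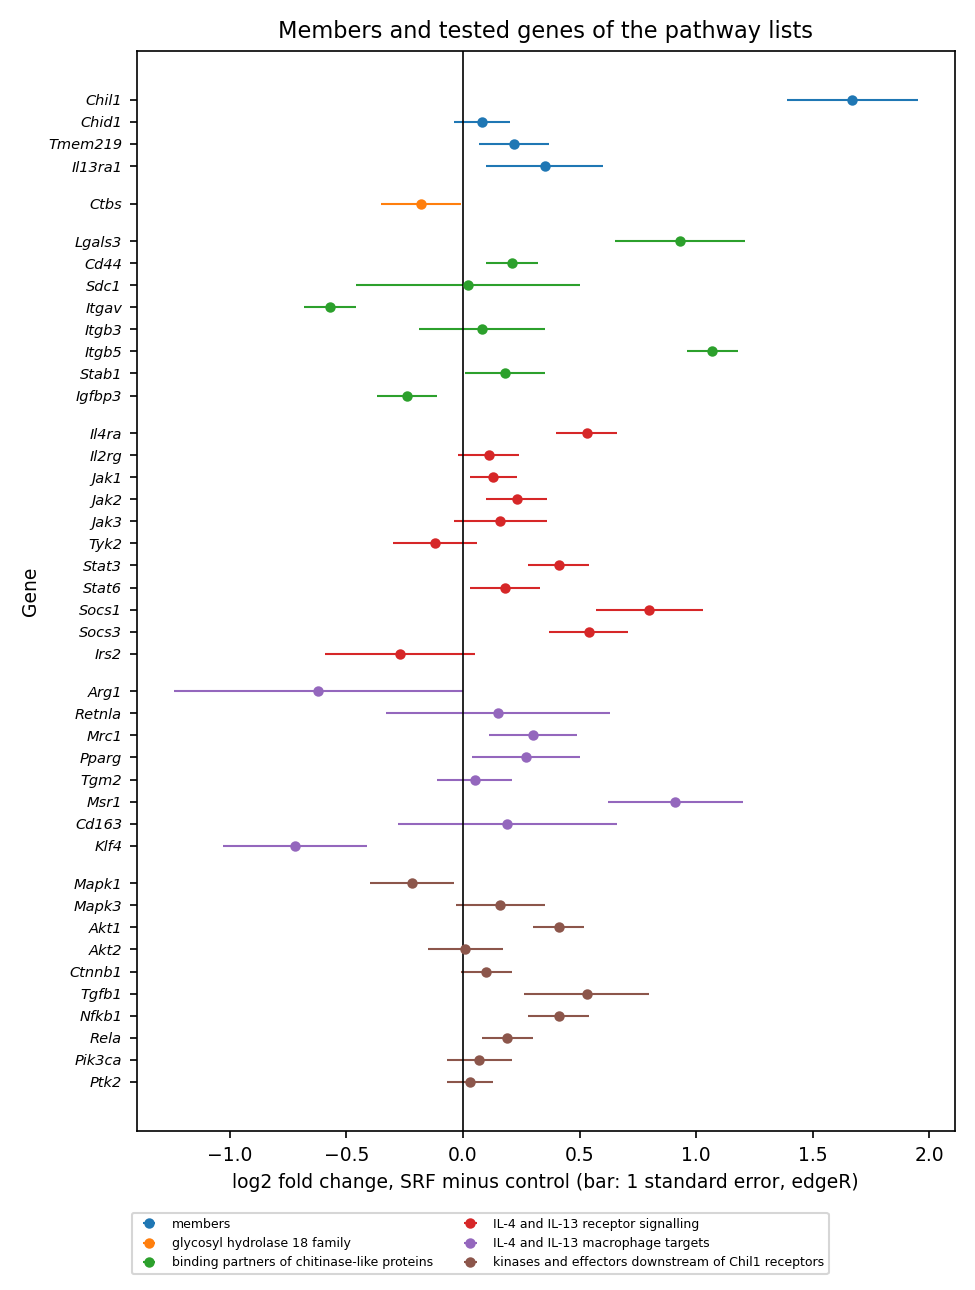
log2 fold change of SRF over control (x) with 1 standard error (bar, edgeR) for the 4 tested members and the tested genes of the pathway lists (y), coloured by list. Chil1 is at 1.67, beyond Itgb5 at 1.07, and Chid1 lies at 0.08.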

How the data were processed

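RPE-choroid RNA of 3 control and 3 SRF mice was sequenced. The authors filtered the reads with FASTP, counted them per gene with StringTie, and deposited counts, not normalized, together with FPKM values, which are scaled to transcript length and mapped reads. The aligner, genome build and strandedness are not given in the sources used here. Symbols and positions come from GENCODE M21 (GRCm38), in which 15659 of 15663 identifiers were found. No gene listed has a count under 1.

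A gene needed over 50 counts in 2 or more libraries, and the 13454 genes that passed (2209 did not) were tested with edgeR 4.0.16 in R 4.3.3 (TMM, glmQLFit, glmQLFTest, group as the only term) and Benjamini-Hochberg adjustment. The median SE of a log2 fold change was 0.188. DESeq2 1.42.0, and limma 3.58.1 on log2(FPKM + 0.1) and log2(FPKM + 1), were alternatives. The edgeR and DESeq2 tests were first tried on simulated data, and limma was not. FPKM served for levels between genes. The labels do not say how mice were assigned, and p-values measure the spread between these mice.

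The members and gene lists were chosen with earlier results of these data known. The list of kinases and effectors held 1 further gene, which is not reported here, so no count or median of that list is given. The genes named are the members, the pathway list genes, the 8 genes with the profile nearest to Chil1, the 2 above and 2 below it in SRF FPKM, and Cd68 and Lyz2 of the markers. Motifs and coding stretches were matched to RefSeq and GENCODE sequences.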

Additional observations from a re-analysis of the deposited data

How the results depend on the processing

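Over 16 alternatives the log2 fold change of Chil1 lay between 1.41 and 2.07, highest without control 3 and lowest without control 1 and SRF 3. Chid1 lay between 0.00 and 0.17, Tmem219 between 0.10 and 0.30 and Il13ra1 between 0.07 and 0.60, and every SRF mouse ranked Chil1 above every control mouse by FPKM and by counts. The number of genes called by edgeR, 0 over all libraries, was 1 with legacy = FALSE, 1 with no filter on low counts, 1 with filterByExpr and 1 with the photoreceptor level as a covariate (Mmp12 each time), and 0 with DESeq2 size factors. It was 2 (Mmp12 and Timp2) with limma at both pseudocounts, 153 with DESeq2, and 0 to 5 with 1 mouse left out, 5 without control 1 (Mmp12, Mpnd, Cited2, Dexi and Btbd2). These genes are named after their values were seen. Without control 1 and SRF 3 it was also 153, of which 85 were shared with DESeq2. Pathway list genes called, the members not counted, were 0, except 2 with DESeq2 (Itgav and Itgb5) and 2 without control 1 and SRF 3 (Lgals3 and Itgb5). The cause was not tested. A replicate block on the number of the mouse gave 0 calls. The deviations of same-numbered mice correlated at -0.482, 0.478 and -0.305, and those of differently numbered mice at -0.694 to 0.615. With 3 mice per group, such values cannot decide whether the numbers pair the mice. Il13ra2 had 1 to 34 counts and was not tested.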
